A study of Homo sapiens with 8 samples.

Results

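The genes described here are 32 genes of sterol and fatty acid synthesis, measured as RNA in MOLT-4 and DND-41, human cell lines derived from T-cell acute lymphoblastic leukaemia. They were chosen by symbol and matched to gene identifiers through the gene name column of the deposited comparison tables, which gave 32 of 63677 genes. The choice was made with earlier results of these data known. Counts of these genes set beside those of all tested genes are therefore description and not a test of the set. NSDHL, EBP and ACLY had more than 1 identifier, and the one with the most reads was taken. By role they are 7 genes of the mevalonate steps, 12 of the squalene and sterol steps, 5 regulators and transport genes and 8 fatty acid synthesis genes.

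Cells make cholesterol from acetyl-CoA through mevalonate, isoprenoid pyrophosphates, squalene and lanosterol, and they make fatty acids from the same acetyl-CoA pool by carboxylation, chain synthesis, elongation and desaturation. Most genes of both routes are targets of the SREBP transcription factors. These are held in the endoplasmic reticulum with their escort SCAP by the INSIG proteins while sterol is plentiful, and are carried to the Golgi, cleaved and sent to the nucleus when sterol runs low. Proliferating T cells and leukaemic lymphoblasts draw on both routes for membranes.

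MOLT-4 and DND-41 cells, grown in RPMI-1640 with serum, received 100 nM ACBI-1 or the solvent DMSO for 8 h before total RNA was taken. ACBI-1 is a degrader that links a bromodomain ligand for SMARCA2, SMARCA4 and PBRM1, subunits of the BAF chromatin remodelling complexes, to one for the ubiquitin ligase VHL. It acts on proteins, so target RNA does not check the labels. The 4 groups, each of 2 libraries, were MOLT-4 with ACBI-1, MOLT-4 with DMSO, DND-41 with ACBI-1 and DND-41 with DMSO. Each line is a single leukaemia line, so a difference between the lines cannot be read as one between kinds of this leukaemia. The comparisons ask which of these transcripts changed within 8 h in each line and whether the change differed between the lines.

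Library totals ran from 19860759 to 20239888 counts. Levels below are CPM, read counts scaled to a common effective library size, and 3 counts equal about 0.15 CPM. The T-lineage markers summed to between 2726 and 2919 CPM in MOLT-4 and between 4638 and 5297 CPM in DND-41, and PTCRA was near 0 in DND-41. In DND-41 the B-lineage marker CD79A stood at 935 and 979 CPM with ACBI-1 and 1568 and 1586 CPM with DMSO, while MS4A1 and PAX5 were at 0 in all libraries. Summed myeloid, erythroid and liver markers reached at most 0.447 CPM in any library. Stromal or epithelial markers, mainly COL1A1, summed to 0.688 and 14.3 CPM in the MOLT-4 ACBI-1 libraries of replicates 1 and 2 and to 3.88 and 69.1 CPM in the corresponding MOLT-4 DMSO libraries, with EPCAM at 0 there, and to at most 0.190 CPM in DND-41. Results in MOLT-4 are therefore given also without both replicate 2 libraries. That leaves 1 MOLT-4 library a group, so those values come from 1 fit with the 4 DND-41 libraries, whose spread the MOLT-4 libraries are assumed to share, and the power is lower. The labels do not say that libraries came from separate cultures, and the spread behind every p-value is that between 2 libraries, which could be technical alone. In bulk RNA, fewer cells of a kind and less RNA per cell cannot be told apart.

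The promoters of a few members are shown because SREBP2, the product of SREBF2, acts with the partner factor NF-Y at many genes of this pathway. A window of 300 bases, running from 250 bases before to 50 bases after the annotated start, was read from RefSeq (GRCh38.p14) for SREBF2 (chr22:41832855-41833154, plus strand), HMGCS1 (chr5:43313363-43313662, minus strand), MVK (chr12:109573544-109573843, plus strand), MVD (chr16:88663042-88663341, minus strand) and FADS1 (chr11:61816954-61817253, minus strand). The first 4 belong to members that rose in 1 or both lines, and FADS1 fell in both. They are written 5′ to 3′ on the gene's strand, with matches to the sterol regulatory element letters TCACNCCAC or the NF-Y box CCAAT, on either strand, in capitals.
SREBF2: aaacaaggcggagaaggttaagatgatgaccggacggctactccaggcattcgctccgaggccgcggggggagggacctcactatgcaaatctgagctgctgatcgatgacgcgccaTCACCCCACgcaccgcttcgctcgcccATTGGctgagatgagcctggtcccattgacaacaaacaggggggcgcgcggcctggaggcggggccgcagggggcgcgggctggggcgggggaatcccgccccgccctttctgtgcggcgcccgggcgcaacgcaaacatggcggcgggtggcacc
HMGCS1: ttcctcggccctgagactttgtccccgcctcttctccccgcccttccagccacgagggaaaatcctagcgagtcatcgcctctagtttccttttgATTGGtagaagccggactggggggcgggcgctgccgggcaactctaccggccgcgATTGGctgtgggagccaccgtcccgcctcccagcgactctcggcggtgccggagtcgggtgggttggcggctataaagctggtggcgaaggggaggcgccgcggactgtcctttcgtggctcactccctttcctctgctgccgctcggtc
MVK: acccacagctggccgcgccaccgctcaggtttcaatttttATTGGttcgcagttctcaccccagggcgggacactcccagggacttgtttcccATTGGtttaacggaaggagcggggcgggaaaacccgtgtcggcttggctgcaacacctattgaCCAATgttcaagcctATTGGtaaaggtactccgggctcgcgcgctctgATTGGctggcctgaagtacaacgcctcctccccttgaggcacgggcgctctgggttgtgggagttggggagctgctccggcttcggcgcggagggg
MVD: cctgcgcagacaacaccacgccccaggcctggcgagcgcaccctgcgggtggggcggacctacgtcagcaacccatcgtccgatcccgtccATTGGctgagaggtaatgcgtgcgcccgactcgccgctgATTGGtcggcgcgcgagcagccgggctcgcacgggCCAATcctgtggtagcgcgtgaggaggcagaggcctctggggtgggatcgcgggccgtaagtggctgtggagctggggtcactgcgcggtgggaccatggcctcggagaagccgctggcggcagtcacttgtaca
FADS1: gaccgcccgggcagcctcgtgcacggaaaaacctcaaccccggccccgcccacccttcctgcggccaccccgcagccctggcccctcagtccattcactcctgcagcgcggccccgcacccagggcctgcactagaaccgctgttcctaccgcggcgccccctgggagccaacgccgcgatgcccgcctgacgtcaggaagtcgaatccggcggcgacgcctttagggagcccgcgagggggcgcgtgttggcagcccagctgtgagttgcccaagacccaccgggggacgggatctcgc

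The SREBF2 window holds the sterol regulatory element letters at position −133 from the start, as TCACCCCAC, followed by an NF-Y box read on the opposite strand. MVK holds 5 NF-Y boxes, MVD 3, HMGCS1 2 (in the upstream window of its 2) and FADS1 0. These windows were picked by how the genes moved, and other members run the other way. PMVK rose in both lines with 0 NF-Y boxes. ACSS2 fell in both, though the authors' results did not call its fall in MOLT-4, and held 1, in the upstream window of its 2. Of 39 windows matched to 28 members, 1 held the sterol regulatory element letters (2.56%), against 396 of all 35116 RefSeq windows (1.13%). The NF-Y box was in 25 member windows (64.1%), against 34.6% of all windows. Some windows of the same gene overlap, as for ACLY and SC5D, and count the same box again. By gene, 21 of the 28 members held the NF-Y box, and no such count was made for all genes. The Sp1 box GGGCGG was in 34 member windows (87.2%), against 45.0% of all, and the E-box CACGTG in 5 (12.8%), against 7.26% of all. Such letters describe the windows and do not show binding.

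In MOLT-4, genes of both routes rose with ACBI-1. By edgeR's quasi-likelihood test with Benjamini-Hochberg adjustment over 14239 genes, 26 of the 32 members rose and 2 fell, where 20.7% of all tested genes rose and 24.4% fell. The median log2 fold change of the members, ACBI-1 over DMSO, was 0.63, against 0.00 over all tested genes. All 7 mevalonate genes rose, as did 10 of 12 squalene and sterol genes, 3 of 5 regulators and transport genes and 6 of 8 fatty acid genes. In 1 fit of all 8 libraries 25 members rose and 2 fell in MOLT-4, where all tested genes gave 2843 rises and 3354 falls. In the fit without both replicate 2 libraries, which also takes its spread from DND-41, 22 members rose and 1 fell, with NSDHL, SCAP, ACACA, ELOVL6 and ACSS2 no longer called, of which SCAP was not called in the fit of all 8 libraries either. Over all tested genes, too, fewer rose and fewer fell in that fit. How much of the members' loss comes from the libraries left out and how much from the smaller fit was not tested. Scaling by library size alone gave 22 rises and 2 falls, while over all tested genes it gave 1781 rises and 3922 falls, against 2948 and 3477 with TMM scaling. The part of the collagen reads in the MOLT-4 results was not otherwise tested.

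In DND-41 the members moved both ways. Over 14008 tested genes, 13 members rose and 7 fell, where 20% of all tested genes rose and 23.2% fell. The members' share of falls is near that of all tested genes. The members' median log2 fold change was 0.09, against 0.01 over all tested genes. Of the mevalonate genes 5 rose and 0 fell, of the squalene and sterol genes 6 rose and 2 fell, and of the regulators and transport genes 2 rose and 1 fell. Of the 8 fatty acid genes 0 rose and 4 fell. Both counts of 0 are by edgeR and were also 0 by DESeq2 and at an unadjusted p under 0.05. Leaving out either DND-41 DMSO library left fewer members called in each direction. Fewer of all tested genes were then called in each direction too, so lower power and a change in the members cannot be told apart.

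**Figure D1:**
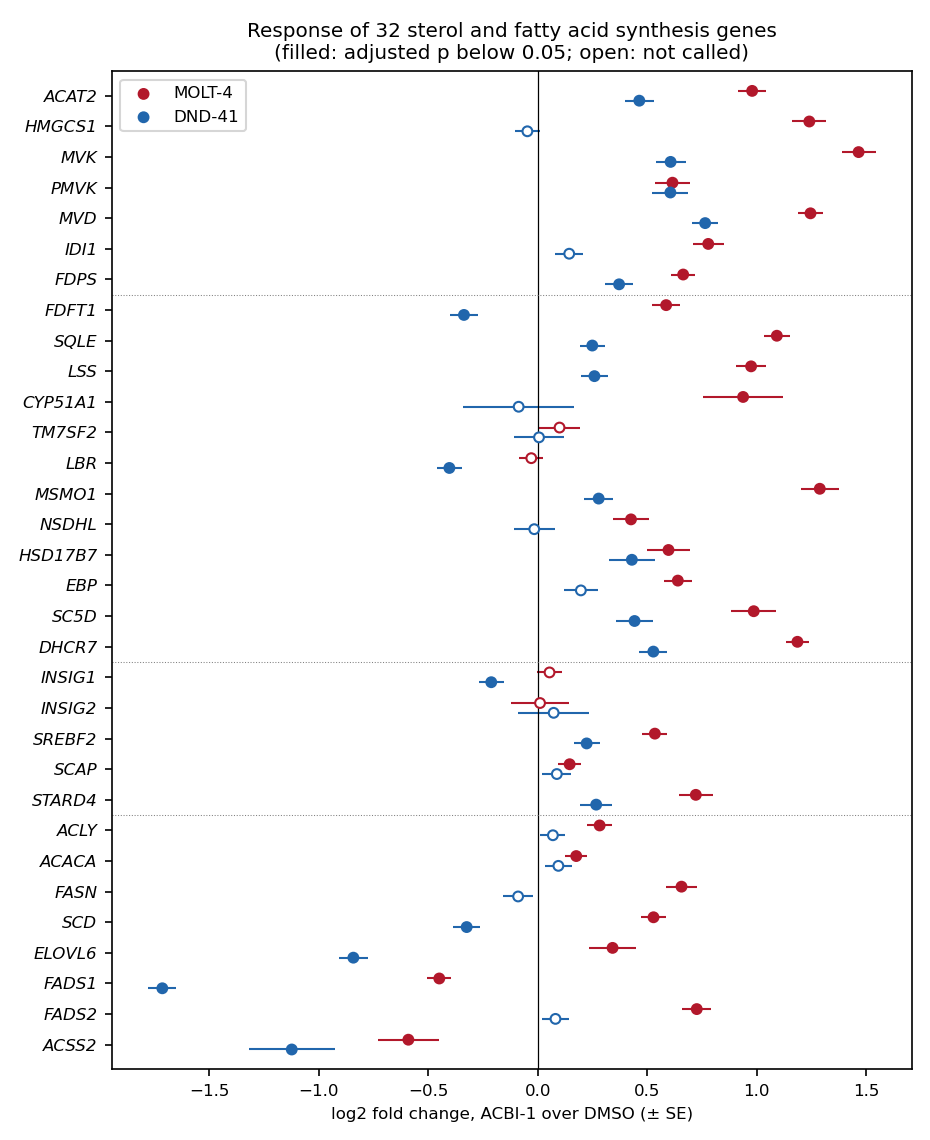
Log2 fold change of each of the 32 genes with ACBI-1 over DMSO (horizontal axis, ± SE, 2 libraries against 2), grouped from top to bottom as mevalonate, squalene and sterol, regulator and transport, and fatty acid genes, with MOLT-4 in red above DND-41 in blue; filled points passed the adjusted p of 0.05. MOLT-4 points lie mostly right of 0, with 26 filled rises, while DND-41 points lie nearer 0 in the mevalonate, squalene and sterol rows except LBR. Filled DND-41 points left of 0 are FDFT1, LBR, INSIG1, SCD, ELOVL6, FADS1 and ACSS2.

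Among the mevalonate genes, ACAT2 encodes the cytosolic thiolase that joins acetyl-CoA units. It had 89.7 and 96.2 CPM in MOLT-4 with ACBI-1, against 45.5 and 48.5 CPM with DMSO (log2 fold change 0.98 ± 0.06, adjusted p = 2.21e-10). It also rose in DND-41, with 99.3 and 89.7 CPM in DND-41 with ACBI-1, against 69.1 and 69.2 CPM with DMSO (log2 fold change 0.46 ± 0.07, adjusted p = 5.44e-05). The next enzyme, HMGCS1, makes HMG-CoA and behaved otherwise. HMGCS1 stood at 119 and 143 CPM in MOLT-4 with ACBI-1, against 51.0 and 59.4 CPM with DMSO, a rise in which every treated library lay above both controls (log2 fold change 1.24 ± 0.08, adjusted p = 1.38e-10). In DND-41 it did not pass the test, at 126 and 124 CPM in DND-41 with ACBI-1, against 129.7 and 131 CPM with DMSO (log2 fold change −0.05 ± 0.06, adjusted p = 0.542). With ACBI-1 the libraries of both lines lay in 1 range for HMGCS1, while MOLT-4 DMSO lay below DND-41 DMSO.

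MVK and PMVK phosphorylate mevalonate in turn. MVK showed the largest log2 fold change of the 32 members in MOLT-4, at 61.9 and 65.7 CPM in MOLT-4 with ACBI-1, against 21.7 and 24.3 CPM with DMSO (log2 fold change 1.46 ± 0.08, adjusted p = 9.90e-12). In DND-41 it also rose, at 46.7 and 47.8 CPM in DND-41 with ACBI-1, against 32 and 30.7 CPM with DMSO (log2 fold change 0.61 ± 0.07, adjusted p = 5.75e-06), without overlap between treated and control libraries in either line. PMVK changed by nearly the same amount in both lines. It had 50.9 and 47.5 CPM in MOLT-4 with ACBI-1, against 29.9 and 34.2 CPM with DMSO (log2 fold change 0.61 ± 0.08, adjusted p = 2.87e-06). Its DND-41 levels were 36.3 and 32 CPM with ACBI-1 and 22.4 and 22.9 CPM with DMSO (log2 fold change 0.61 ± 0.08, adjusted p = 3.47e-05).

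MVD decarboxylates the product to isopentenyl pyrophosphate, and in DND-41 its rise was the largest among the members. It reached 141 and 150.2 CPM in MOLT-4 with ACBI-1, against 58.6 and 63.8 CPM with DMSO (log2 fold change 1.25 ± 0.06, adjusted p = 1.74e-12). It also reached 151 and 157 CPM in DND-41 with ACBI-1, against 93.1 and 89.7 CPM with DMSO (log2 fold change 0.76 ± 0.06, adjusted p = 1.24e-07). IDI1 isomerises isopentenyl pyrophosphate. It rose in MOLT-4, with 75.8 and 86.2 CPM in MOLT-4 with ACBI-1, against 46.0 and 48.1 CPM with DMSO (log2 fold change 0.78 ± 0.07, adjusted p = 2.16e-08). Its DND-41 value missed the threshold at 81.2 and 78.3 CPM in DND-41 with ACBI-1, against 75.5 and 70.2 CPM with DMSO (log2 fold change 0.14 ± 0.06, adjusted p = 0.0894). Leaving out 1 library gave IDI1 log2 fold changes from 0.089 to 0.19 in DND-41. FDPS condenses the units to farnesyl pyrophosphate, the branch point to squalene and to protein prenylation. FDPS had 112 and 117 CPM in MOLT-4 with ACBI-1, against 72.4 and 72.2 CPM with DMSO (log2 fold change 0.66 ± 0.05, adjusted p = 6.07e-09). In DND-41 FDPS also rose, at 134 and 124 CPM in DND-41 with ACBI-1, against 98.0 and 104 CPM with DMSO (log2 fold change 0.37 ± 0.06, adjusted p = 2.57e-04). The FDPS, MVK, ACAT2, HMGCS1 and IDI1 exons share bases with genes of the opposite strand in the GENCODE 29 annotation. The libraries were strand-specific per the labels, but the counting setting is not given in the sources used here.

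The squalene and sterol steps begin with FDFT1, squalene synthase, which moved in opposite directions. FDFT1 rose in MOLT-4, with 493 and 549.5 CPM in MOLT-4 with ACBI-1, against 329.6 and 363 CPM with DMSO (log2 fold change 0.59 ± 0.07, adjusted p = 4.47e-07). It fell in DND-41, with 560.3 and 505 CPM in DND-41 with ACBI-1, against 683 and 677 CPM with DMSO (log2 fold change −0.34 ± 0.06, adjusted p = 7.06e-04). SQLE, the squalene epoxidase that is among the controlled steps of the route, had 194 and 220.1 CPM in MOLT-4 with ACBI-1, against 96.0 and 97.9 CPM with DMSO (log2 fold change 1.09 ± 0.06, adjusted p = 1.74e-11). In DND-41 SQLE rose by less, at 194 and 194 CPM in DND-41 with ACBI-1, against 169.7 and 160.2 CPM with DMSO (log2 fold change 0.25 ± 0.06, adjusted p = 0.0031). LSS cyclises the epoxide to lanosterol. LSS had 329 and 386 CPM in MOLT-4 with ACBI-1, against 172 and 190.4 CPM with DMSO (log2 fold change 0.97 ± 0.07, adjusted p = 7.95e-10). LSS rose in DND-41 by less, at 167 and 161 CPM in DND-41 with ACBI-1, against 144 and 133 CPM with DMSO (log2 fold change 0.26 ± 0.06, adjusted p = 0.00328). Without DND-41 DMSO replicate 2 neither DND-41 call held, with SQLE at 0.21, adjusted p = 0.129 and LSS at 0.20, adjusted p = 0.132.

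**Figure D2:**
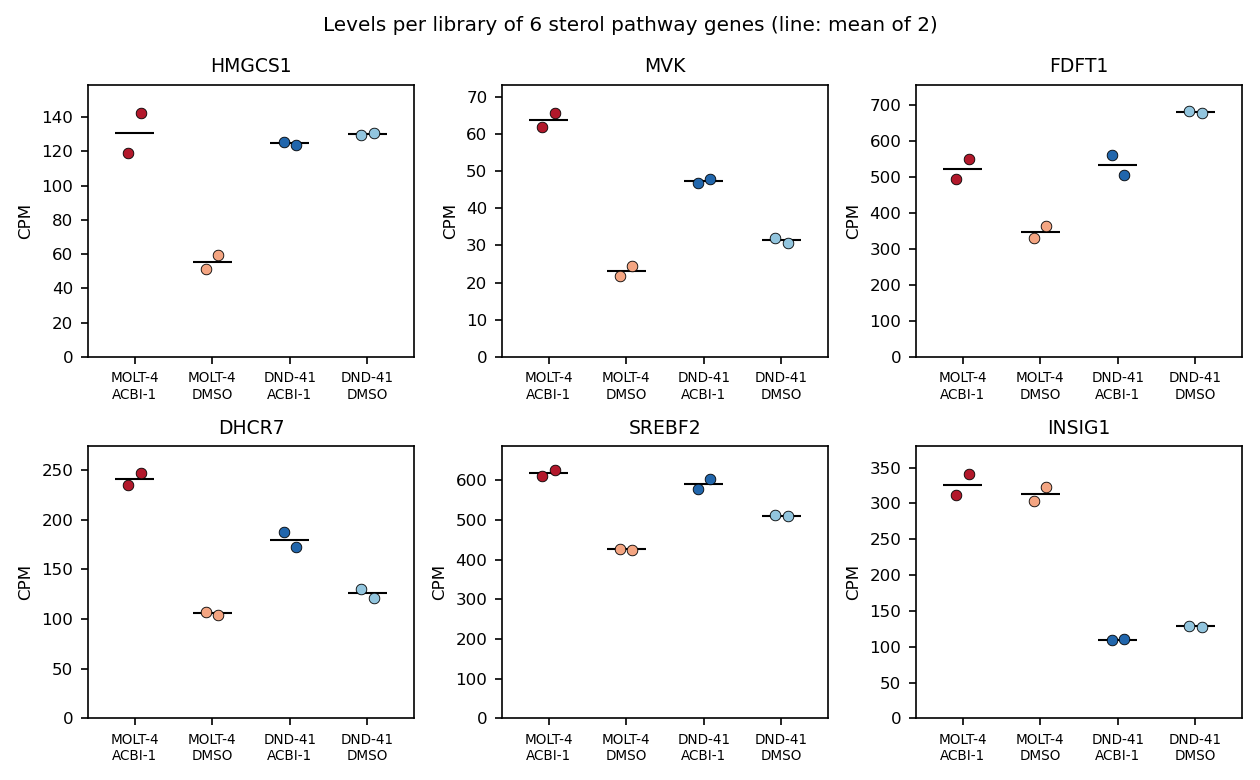
CPM in each library (points, vertical axes from 0) and the mean of each pair (lines) for HMGCS1, MVK, FDFT1, DHCR7, SREBF2 and INSIG1, with groups from left to right MOLT-4 ACBI-1, MOLT-4 DMSO, DND-41 ACBI-1 and DND-41 DMSO. HMGCS1 lies between 119 and 143 CPM in 3 groups and between 51.0 and 59.4 CPM in MOLT-4 DMSO, FDFT1 moves in opposite directions in the lines, and INSIG1 is about as high in both MOLT-4 groups.

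CYP51A1, the lanosterol demethylase, was counted at a low level. It had 5.29 and 5.51 CPM in MOLT-4 with ACBI-1, against 2.78 and 2.83 CPM with DMSO (log2 fold change 0.94 ± 0.18, adjusted p = 2.92e-04). In DND-41 the groups overlapped, at 1.96 and 2.01 CPM in DND-41 with ACBI-1, against 1.76 and 2.51 CPM with DMSO (log2 fold change −0.09 ± 0.25, adjusted p = 0.817). In GENCODE 29, 79.4% of its exon bases are also exon of a longer gene on the same strand, AC000120.2, so the authors' counting could have split or dropped its reads. TM7SF2 and LBR encode alternative reductases for the next step, and LBR is also a receptor of the nuclear lamina. TM7SF2 passed in neither line, with levels from 15.1 to 21.3 CPM over all 8 libraries. LBR did not pass in MOLT-4, where treated and control libraries overlapped at 269 and 270.3 CPM in MOLT-4 with ACBI-1, against 285 and 265 CPM with DMSO (log2 fold change −0.03 ± 0.06, adjusted p = 0.697). In DND-41 LBR fell to 181 and 190.1 CPM in DND-41 with ACBI-1, against 246 and 249 CPM with DMSO (log2 fold change −0.40 ± 0.06, adjusted p = 5.21e-05).

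MSMO1, NSDHL and HSD17B7 then remove methyl groups. MSMO1, the oxidase, had 36.6 and 43.2 CPM in MOLT-4 with ACBI-1, against 15.8 and 16.7 CPM with DMSO (log2 fold change 1.29 ± 0.09, adjusted p = 3.90e-10). For DND-41 the MSMO1 libraries read 46.7 and 45.4 CPM in DND-41 with ACBI-1, against 38.7 and 38.0 CPM with DMSO (log2 fold change 0.28 ± 0.07, adjusted p = 0.00378). The DND-41 call ended without DND-41 DMSO replicate 2 (0.26, adjusted p = 0.0597). NSDHL, the decarboxylase, rose in MOLT-4, at 26.1 and 25.4 CPM in MOLT-4 with ACBI-1, against 20.2 and 18.1 CPM with DMSO (log2 fold change 0.43 ± 0.08, adjusted p = 3.64e-04), and passed in 1 fit of all 8 libraries but not in the fit with DND-41 that leaves out both MOLT-4 replicate 2 libraries (0.36, adjusted p = 0.0797). Its DND-41 libraries overlapped, at 24.3 and 20.4 CPM with ACBI-1 and 22.6 and 23.0 CPM with DMSO (log2 fold change −0.02 ± 0.09, adjusted p = 0.908). HSD17B7, the ketone reductase, had 18.6 and 18.6 CPM in MOLT-4 with ACBI-1, against 12.1 and 12.5 CPM with DMSO (log2 fold change 0.60 ± 0.10, adjusted p = 4.19e-05). It had 17.8 and 19.5 CPM in DND-41 with ACBI-1, against 12.8 and 15.2 CPM with DMSO (log2 fold change 0.43 ± 0.10, adjusted p = 0.00407), a call that ended without DND-41 DMSO replicate 1 (0.30, adjusted p = 0.0846). Its 2 named pseudogenes held 1082 counts over all libraries, against 2556 for HSD17B7, so its count is uncertain.

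The last steps move and reduce double bonds. EBP, the isomerase, had 72.1 and 77.2 CPM in MOLT-4 with ACBI-1, against 48.4 and 47.2 CPM with DMSO (log2 fold change 0.64 ± 0.07, adjusted p = 1.31e-07). In DND-41 it missed the threshold at 47.3 and 40.6 CPM in DND-41 with ACBI-1, against 38.0 and 39.4 CPM with DMSO (log2 fold change 0.20 ± 0.08, adjusted p = 0.0584), but passed without DND-41 ACBI-1 replicate 2 (0.30, adjusted p = 4.12e-04) and with scaling by library size alone (0.22, adjusted p = 0.0406). SC5D, a desaturase, rose in both lines. SC5D had 24.3 and 28.7 CPM in MOLT-4 with ACBI-1, against 14.4 and 12.3 CPM with DMSO (log2 fold change 0.99 ± 0.10, adjusted p = 1.64e-07). DND-41 gave SC5D at 30.3 and 33.7 CPM in DND-41 with ACBI-1, against 22.9 and 24.7 CPM with DMSO (log2 fold change 0.44 ± 0.08, adjusted p = 5.77e-04). DHCR7, which makes cholesterol from its direct precursor, did likewise. DHCR7 had 235 and 247 CPM in MOLT-4 with ACBI-1, against 107 and 104 CPM with DMSO (log2 fold change 1.19 ± 0.05, adjusted p = 9.28e-13). The DND-41 libraries gave DHCR7 at 187 and 172 CPM in DND-41 with ACBI-1, against 130.4 and 121 CPM with DMSO (log2 fold change 0.53 ± 0.06, adjusted p = 1.12e-05).

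Summed over the members of a role, the mevalonate genes held 651 and 706 CPM in the MOLT-4 ACBI-1 libraries, against 325 and 351 CPM in the MOLT-4 DMSO libraries. In DND-41 they held 674 and 653 CPM with ACBI-1 and 519.9 and 517 CPM with DMSO. The treated libraries of both lines lay in 1 range, and the MOLT-4 controls were lowest. The squalene and sterol genes held 1723 and 1892 CPM with ACBI-1 and 1121 and 1149 CPM with DMSO in MOLT-4. In DND-41 their sum was 1475 and 1403 CPM with ACBI-1 and 1529 and 1499 CPM with DMSO, where FDFT1 is the largest single term in every library.

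**Figure D3:**
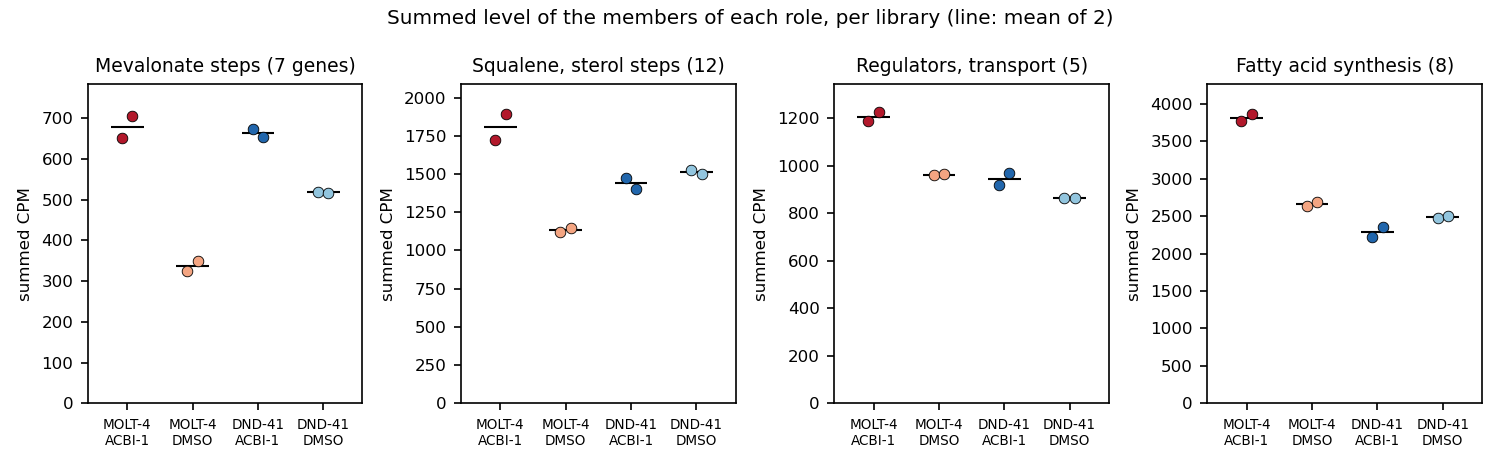
Summed CPM per library (points, vertical axes from 0) over the members of each role, with the mean of each pair as a line and groups from left to right MOLT-4 ACBI-1, MOLT-4 DMSO, DND-41 ACBI-1 and DND-41 DMSO. In MOLT-4 the treated libraries lie above the controls in all 4 panels; in DND-41 they do so for the mevalonate and regulator sums and lie below for the squalene and sterol and the fatty acid sums.

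The regulators did not move as a block. SREBF2, which encodes the sterol-responsive SREBP2, had 611 and 626 CPM in MOLT-4 with ACBI-1, against 427 and 424 CPM with DMSO (log2 fold change 0.53 ± 0.06, adjusted p = 2.75e-07). In DND-41 it had 579 and 603 CPM in DND-41 with ACBI-1, against 513 and 509.6 CPM with DMSO (log2 fold change 0.22 ± 0.06, adjusted p = 0.00709), a call lost without DND-41 DMSO replicate 1 (0.22, adjusted p = 0.139) or replicate 2 (0.22, adjusted p = 0.148). INSIG1, itself a classic SREBP target and the feedback anchor of SCAP, did not pass in MOLT-4. Its levels overlapped there, at 312 and 340.5 CPM in MOLT-4 with ACBI-1, against 304 and 323 CPM with DMSO (log2 fold change 0.05 ± 0.06, adjusted p = 0.498). In DND-41 INSIG1 fell slightly, to 109.5 and 110.4 CPM in DND-41 with ACBI-1, against 129 and 128 CPM with DMSO (log2 fold change −0.21 ± 0.06, adjusted p = 0.00827), again lost without DND-41 DMSO replicate 1 (−0.21, adjusted p = 0.109) or replicate 2 (−0.22, adjusted p = 0.0908).

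STARD4, a soluble sterol carrier, rose with the enzymes. STARD4 had 43.3 and 45.9 CPM in MOLT-4 with ACBI-1, against 28.6 and 25.4 CPM with DMSO (log2 fold change 0.72 ± 0.08, adjusted p = 2.55e-07). STARD4 also rose in DND-41, at 39.4 and 40.6 CPM in DND-41 with ACBI-1, against 32.2 and 35.0 CPM with DMSO (log2 fold change 0.27 ± 0.07, adjusted p = 0.00817). The DND-41 call ended without DND-41 DMSO replicate 1 (0.20, adjusted p = 0.185), and also by DESeq2 (0.27, adjusted p = 0.0521). INSIG2, the second anchor, lay between 4.49 and 6.99 CPM in all libraries and passed in neither line. SCAP, the escort, had a log2 fold change of 0.15 ± 0.05, adjusted p = 0.0341 in MOLT-4 and 0.09 ± 0.07, adjusted p = 0.319 in DND-41. The MOLT-4 call for SCAP was lost without MOLT-4 ACBI-1 replicate 1 (0.12, adjusted p = 0.23) or without MOLT-4 DMSO replicate 2 (0.12, adjusted p = 0.149), and the DND-41 value passed without DND-41 ACBI-1 replicate 1 (0.18, adjusted p = 0.00604).

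Of the fatty acid genes, those that make the cytosolic acetyl-CoA pool came first in the route. ACLY cleaves citrate, and its level lay between 423 and 531 CPM in MOLT-4 and between 358 and 375 CPM in DND-41. Its log2 fold change was 0.28 ± 0.06, adjusted p = 4.44e-04 in MOLT-4 and 0.07 ± 0.06, adjusted p = 0.355 in DND-41, and the MOLT-4 call ended with scaling by library size alone (0.20, adjusted p = 0.0675). ACSS2 makes acetyl-CoA from acetate and fell by edgeR in both lines, where it was among the lowest members. The authors' DESeq2 results did not call it in MOLT-4 (adjusted p = 0.0824). ACSS2 had 5.66 and 5.23 CPM in MOLT-4 with ACBI-1, against 7.87 and 8.50 CPM with DMSO (log2 fold change −0.59 ± 0.14, adjusted p = 0.0016), and it passed in 1 fit of all 8 libraries but not in the fit with DND-41 that has 1 MOLT-4 library a group (−0.49, adjusted p = 0.126). In DND-41 it had 2.01 and 2.33 CPM in DND-41 with ACBI-1, against 4.98 and 4.59 CPM with DMSO (log2 fold change −1.12 ± 0.20, adjusted p = 3.21e-04).

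ACACA carboxylates acetyl-CoA to malonyl-CoA, and FASN builds palmitate from it. ACACA lay between 159 and 182 CPM in MOLT-4 (log2 fold change 0.18 ± 0.05, adjusted p = 0.0089). It lay between 101 and 114 CPM in DND-41 (log2 fold change 0.09 ± 0.06, adjusted p = 0.248). The MOLT-4 call for ACACA was lost without MOLT-4 ACBI-1 replicate 1 (0.17, adjusted p = 0.0689). FASN rose in MOLT-4, to 1319.5 and 1331 CPM in MOLT-4 with ACBI-1, against 821 and 857 CPM with DMSO (log2 fold change 0.66 ± 0.07, adjusted p = 1.99e-07). In DND-41 its libraries overlapped, at 675 and 767 CPM in DND-41 with ACBI-1, against 758 and 791 CPM with DMSO (log2 fold change −0.09 ± 0.07, adjusted p = 0.327), and FASN passed as lower without DND-41 ACBI-1 replicate 2 (−0.19, adjusted p = 0.002).

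SCD and ELOVL6 desaturate and lengthen the product, and both moved in opposite directions in the 2 lines. SCD had 466 and 493 CPM in MOLT-4 with ACBI-1, against 324 and 339.7 CPM with DMSO (log2 fold change 0.53 ± 0.06, adjusted p = 3.63e-07). In DND-41 SCD fell to 281 and 305 CPM in DND-41 with ACBI-1, against 361 and 381 CPM with DMSO (log2 fold change −0.32 ± 0.06, adjusted p = 6.85e-04). ELOVL6 had 15.4 and 16.7 CPM in MOLT-4 with ACBI-1, against 13.5 and 11.7 CPM with DMSO (log2 fold change 0.34 ± 0.11, adjusted p = 0.0127). The authors' DESeq2 results did not call it in MOLT-4 (adjusted p = 0.169). The MOLT-4 rise of ELOVL6 was lost without MOLT-4 ACBI-1 replicate 2 (0.29, adjusted p = 0.0609), without MOLT-4 DMSO replicate 2 (0.25, adjusted p = 0.115) and in the fit with DND-41 that leaves out both (0.17, adjusted p = 0.384). In DND-41 ELOVL6 fell to 32.7 and 33.0 CPM in DND-41 with ACBI-1, against 60.6 and 58.5 CPM with DMSO (log2 fold change −0.84 ± 0.07, adjusted p = 1.37e-07).

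FADS1 and FADS2 encode desaturases of polyunsaturated fatty acids and are neighbours on chromosome 11, read from opposite strands, with FADS3 on the far side of FADS2. FADS1 showed the largest fall of the members in DND-41, with 37.4 and 36.0 CPM in DND-41 with ACBI-1, against 123 and 120.5 CPM with DMSO (log2 fold change −1.71 ± 0.06, adjusted p = 1.05e-10). It also fell in MOLT-4, with 129.9 and 140.0 CPM in MOLT-4 with ACBI-1, against 188 and 179.8 CPM with DMSO (log2 fold change −0.45 ± 0.05, adjusted p = 1.42e-06). FADS2 rose in MOLT-4, with 1136 and 1166 CPM in MOLT-4 with ACBI-1, against 698 and 690.5 CPM with DMSO (log2 fold change 0.73 ± 0.07, adjusted p = 2.55e-08). In DND-41 FADS2 did not pass, at 712 and 734 CPM in DND-41 with ACBI-1, against 703 and 677 CPM with DMSO (log2 fold change 0.08 ± 0.06, adjusted p = 0.311). FADS3, a related gene, fell in both lines, by 1.51 ± 0.14 on the log2 scale in MOLT-4 and 2.11 ± 0.23 in DND-41. FADS1 and FADS2 share 490 exon bases on opposite strands in GENCODE 29.

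**Figure D4:**
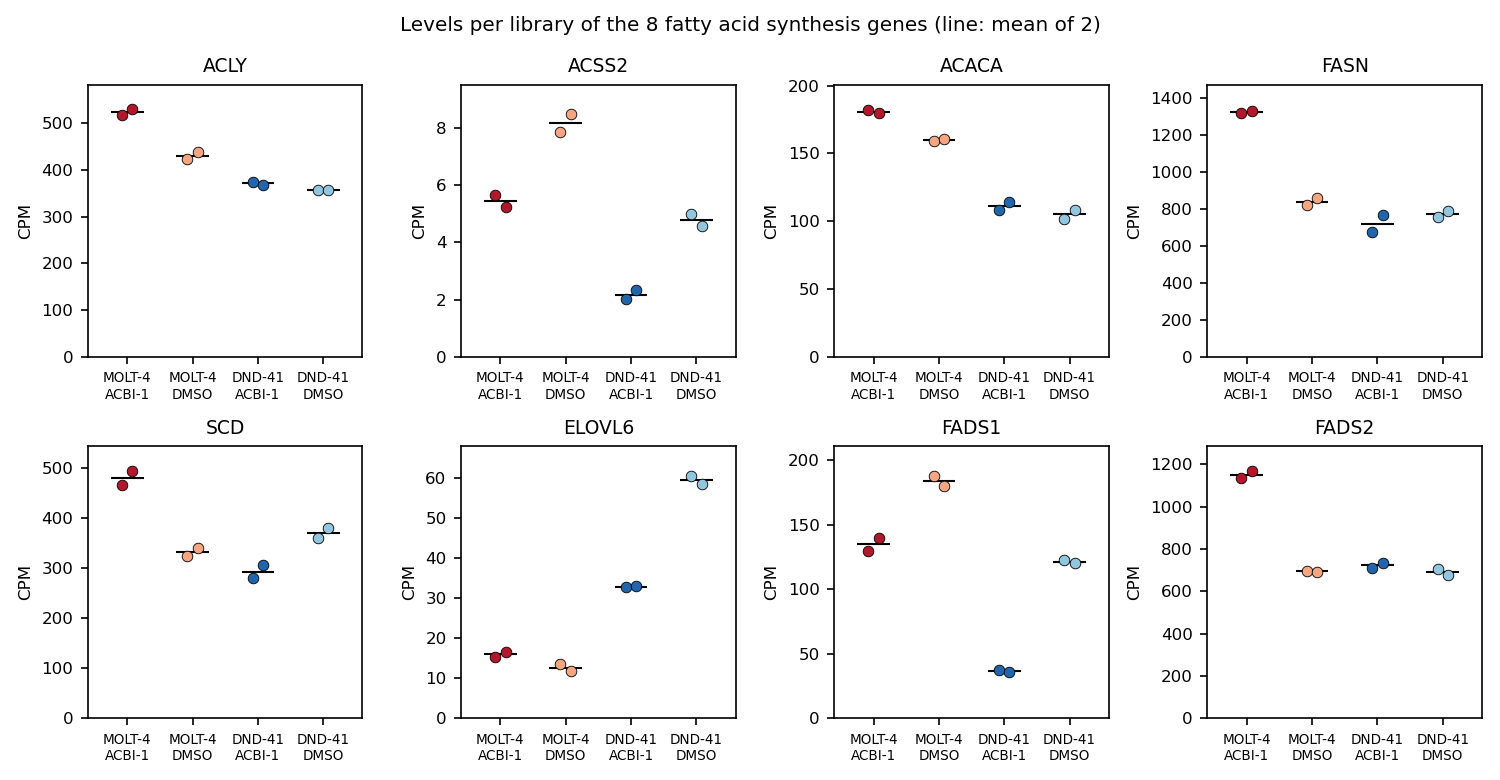
CPM in each library (points, vertical axes from 0) and the mean of each pair (lines) for the 8 fatty acid synthesis genes, with groups from left to right MOLT-4 ACBI-1, MOLT-4 DMSO, DND-41 ACBI-1 and DND-41 DMSO. FASN, FADS2 and SCD stand highest in MOLT-4 ACBI-1, while FADS1 and ACSS2 are lowest in DND-41 ACBI-1.

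The response differed between the lines for 24 of the 32 members. The difference, MOLT-4 effect minus DND-41 effect, was tested as an interaction in 1 fit of all 8 libraries over 15498 genes, where 7.18% of all tested genes passed as higher and 6.17% as lower. All 24 members that passed were higher, that is more positive in MOLT-4, and 0 were lower by edgeR, by DESeq2 or at an unadjusted p under 0.05. By role 6 of 7 mevalonate, 10 of 12 squalene and sterol, 3 of 5 regulator and transport, and 5 of 8 fatty acid genes passed. The members' median difference was 0.54, against 0.00 over all tested genes. Without both MOLT-4 replicate 2 libraries, with 1 MOLT-4 library a group, 15 members passed, where all tested genes gave 440 higher and 504 lower, and with scaling by library size alone 16 did, where all tested genes gave 499 higher and 1411 lower, against 1112 and 956 with TMM scaling. That scaling moved the median difference of all genes by −0.12, and the members' median then stood 0.54 above that of all genes, with 31 of 32 members above it.

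HMGCS1 had the largest difference (1.31 ± 0.11, adjusted p = 1.58e-07), followed by FADS1 (1.28 ± 0.08, adjusted p = 7.66e-09) and ELOVL6 (1.20 ± 0.12, adjusted p = 1.31e-06). For HMGCS1 the difference came with a rise in MOLT-4 alone, for FADS1 with falls of unequal size, and for ELOVL6 with opposite directions. The MOLT-4 rise of ELOVL6 was lost on leaving out either replicate 2 library of MOLT-4. Of the later sterol genes, MSMO1 differed by 1.03 ± 0.12, adjusted p = 5.31e-06, FDFT1 by 0.94 ± 0.10, adjusted p = 2.07e-06 and SQLE by 0.86 ± 0.09, adjusted p = 1.61e-06. LSS differed by 0.73 ± 0.10, adjusted p = 5.87e-05 and DHCR7 by 0.68 ± 0.08, adjusted p = 1.84e-05. Of the fatty acid genes, SCD differed by 0.87 ± 0.09, adjusted p = 9.74e-07, FASN by 0.76 ± 0.10, adjusted p = 1.85e-05 and FADS2 by 0.66 ± 0.08, adjusted p = 1.99e-05. From MSMO1 on, each of these 8 genes rose in MOLT-4, and rose by less, fell or did not pass in DND-41.

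**Figure D5:**
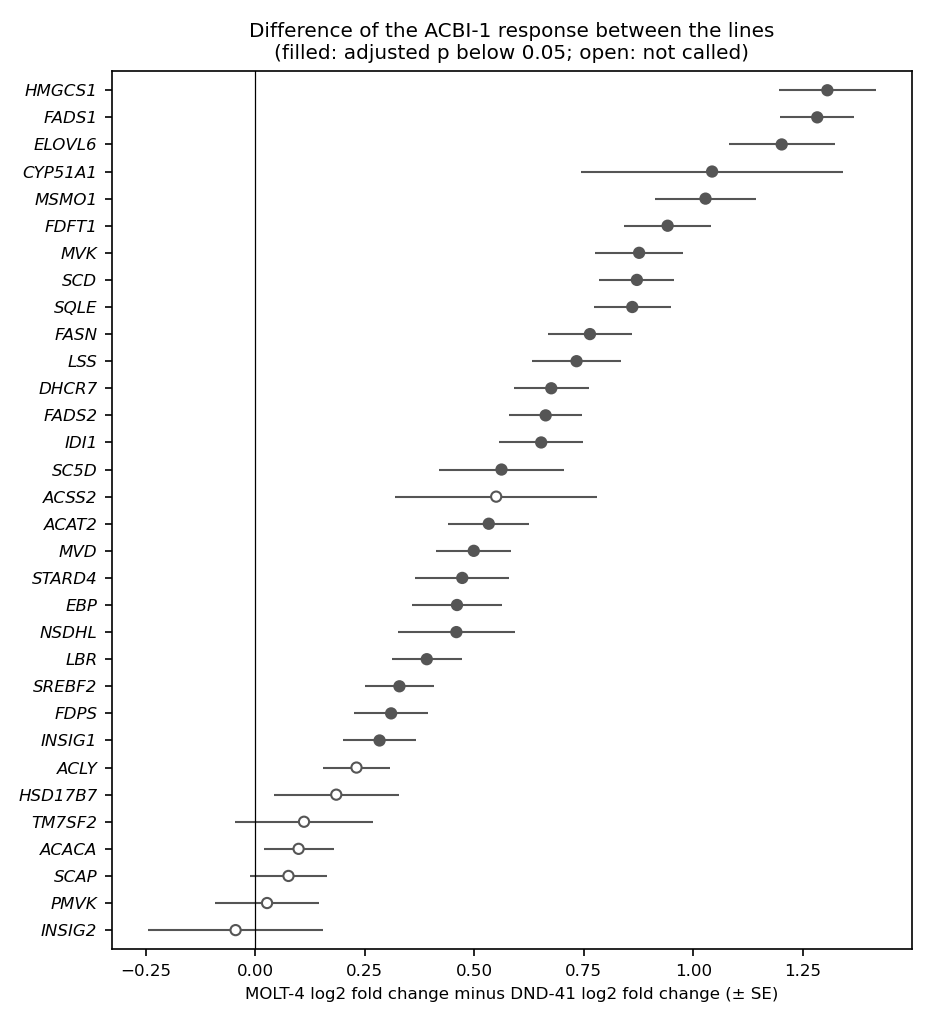
Difference of the log2 fold change between lines, MOLT-4 minus DND-41 (horizontal axis, ± SE, from 1 fit of 8 libraries), for each of the 32 genes in order of size; filled points passed the adjusted p of 0.05. Filled points all lie right of 0, and PMVK and INSIG2 lie near it.

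Among the earlier steps, MVK differed by 0.88 ± 0.10, adjusted p = 6.62e-06, IDI1 by 0.65 ± 0.10, adjusted p = 1.11e-04, ACAT2 by 0.53 ± 0.09, adjusted p = 5.63e-04 and MVD by 0.50 ± 0.09, adjusted p = 5.31e-04. PMVK did not pass (0.03 ± 0.12, adjusted p = 0.945), nor did HSD17B7 (0.19 ± 0.14, adjusted p = 0.473), ACSS2 (0.55 ± 0.23, adjusted p = 0.135), TM7SF2, INSIG2, SCAP, ACACA or ACLY. ACLY, at 0.23 ± 0.08, adjusted p = 0.0553, passed without DND-41 ACBI-1 replicate 1 (0.25, adjusted p = 0.0435), and also by DESeq2 (0.22, adjusted p = 0.0284). EBP (0.46 ± 0.10, adjusted p = 0.00462), LBR (0.39 ± 0.08, adjusted p = 0.00216) and SREBF2 (0.33 ± 0.08, adjusted p = 0.00849) passed, but not without both MOLT-4 replicate 2 libraries, where EBP stood at 0.37, adjusted p = 0.152, LBR at 0.32, adjusted p = 0.0942 and SREBF2 at 0.28, adjusted p = 0.143.

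Another 6 differences were lost on leaving out 1 library. SC5D (0.56 ± 0.14, adjusted p = 0.0123) was not called without DND-41 DMSO replicate 2 (0.51, adjusted p = 0.0699), MOLT-4 ACBI-1 replicate 2 (0.44, adjusted p = 0.092) or MOLT-4 DMSO replicate 2 (0.43, adjusted p = 0.0961). FDPS (0.31 ± 0.08, adjusted p = 0.0185) was lost without the same libraries, with DND-41 DMSO replicate 2 left out (0.28, adjusted p = 0.11), MOLT-4 ACBI-1 replicate 2 (0.28, adjusted p = 0.0988) or MOLT-4 DMSO replicate 2 (0.29, adjusted p = 0.0845). STARD4 (0.47 ± 0.11, adjusted p = 0.00544) depended on DND-41 DMSO replicate 2 (0.42, adjusted p = 0.0521) and MOLT-4 DMSO replicate 2 (0.37, adjusted p = 0.0523). INSIG1 (0.28 ± 0.08, adjusted p = 0.0289) depended on either DND-41 DMSO library (0.28, adjusted p = 0.11 without replicate 1 and 0.30, adjusted p = 0.0951 without replicate 2), on MOLT-4 ACBI-1 replicate 2 (0.22, adjusted p = 0.169) and on MOLT-4 DMSO replicate 1 (0.24, adjusted p = 0.103). NSDHL (0.46 ± 0.13, adjusted p = 0.0269) was lost without any 1 of 6 libraries, with DND-41 ACBI-1 replicate 1 and MOLT-4 DMSO replicate 1 the exceptions, and had its lowest value without DND-41 ACBI-1 replicate 2 (0.34, adjusted p = 0.0979). CYP51A1 (1.04 ± 0.30, adjusted p = 0.0255) was lost without DND-41 DMSO replicate 2 (0.77, adjusted p = 0.188) or without any 1 MOLT-4 library, where its values were 1.02 or more.

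In DMSO alone, most mevalonate genes and 6 of 12 squalene and sterol genes stood lower in MOLT-4 than in DND-41. This comparison shares its control libraries with those above. In MOLT-4 DMSO over DND-41 DMSO, 10 members were higher and 16 lower by edgeR, where 33.2% of all tested genes were higher and 30.7% lower. The share of members that were higher is near that of all tested genes. Of the mevalonate genes 6 of 7 were lower and PMVK was higher (0.50 ± 0.09, adjusted p = 5.46e-05). HMGCS1 and MSMO1 were the lowest sterol genes relative to DND-41 DMSO (−1.24 ± 0.08, adjusted p = 1.01e-10 for HMGCS1 and −1.24 ± 0.09, adjusted p = 3.20e-10 for MSMO1), followed by FDFT1 (−0.97 ± 0.07, adjusted p = 4.99e-10) and SC5D (−0.84 ± 0.11, adjusted p = 1.44e-06). The 3 squalene and sterol genes that were higher were LSS (0.39 ± 0.07, adjusted p = 1.27e-04), EBP (0.30 ± 0.07, adjusted p = 0.00151) and LBR (0.15 ± 0.06, adjusted p = 0.0268). INSIG1 was the member most above its DND-41 DMSO level (1.28 ± 0.06, adjusted p = 5.82e-13), with 304 and 323 CPM in MOLT-4 DMSO, against 129 and 128 CPM in DND-41 DMSO.

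The fatty acid genes had no common direction in DMSO. ELOVL6 had the largest gap of all members, with 13.5 and 11.7 CPM in MOLT-4 DMSO, against 60.6 and 58.5 CPM in DND-41 DMSO (−2.24 ± 0.08, adjusted p = 2.29e-14). ACSS2 (0.77 ± 0.14, adjusted p = 1.14e-04), ACACA (0.60 ± 0.06, adjusted p = 2.24e-08), FADS1 (0.60 ± 0.06, adjusted p = 2.88e-08) and ACLY (0.27 ± 0.05, adjusted p = 3.20e-04) were higher in MOLT-4 DMSO. With scaling by library size alone, which moved the median of all genes by −0.10 in this comparison, ACLY did not pass (0.16, adjusted p = 0.0578). FASN (0.11 ± 0.07, adjusted p = 0.152) and FADS2 (0.01 ± 0.06, adjusted p = 0.916) did not pass.

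Per kilobase of exon, with lengths from GENCODE 29 for 31 of the members, FDFT1 had the highest mean level in DND-41, at 102 CPM per kb with ACBI-1 and 131 CPM per kb with DMSO. FASN had the highest in MOLT-4, at 142 CPM per kb with ACBI-1 and 89.6 CPM per kb with DMSO. INSIG1 was next in MOLT-4 DMSO, at 85.9 CPM per kb. CYP51A1 and ACSS2 were the lowest members with a length in each group, at 1.51 CPM per kb or less except for ACSS2 in MOLT-4 DMSO, at 1.52 CPM per kb. Genes with few reads such as these carry wider errors. The place of CYP51A1 may also reflect reads split or dropped at the exon bases it shares with AC000120.2, which was not tested.

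Other genes of the pathway, from lists that hold no member, gave the surroundings. Of 22 tested genes of sterol regulation and uptake, 12 rose and 5 fell in MOLT-4, and 5 rose and 5 fell in DND-41. Of all tested genes 20.7% rose and 24.4% fell in MOLT-4, and 20% rose and 23.2% fell in DND-41, where the list's counts are near those shares. The list's median log2 fold change was 0.20 in MOLT-4 and 0.02 in DND-41, against 0.00 and 0.01 over all tested genes. For the difference between lines, 9 of 22 tested genes of this list passed as higher in MOLT-4 and 3 as lower. Over all tested genes 7.18% were higher and 6.17% lower. The 3 lower ones were SREBF1, LPIN1 and SYVN1, with SREBF1 at −0.32 to −0.25 on leaving out each library in turn. Of the 2 lists below, 5 of 22 fatty acid supply and use genes and 1 of 12 isoprenoid genes were higher, and 0 lower. C14orf1, the homologue of yeast ERG28, a scaffold of the demethylation enzymes, rose in MOLT-4 (log2 fold change 1.02 ± 0.06, adjusted p = 7.91e-11) and in DND-41 (log2 fold change 0.62 ± 0.06, adjusted p = 1.28e-06).

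SREBF1, which encodes SREBP1, the form tied to fatty acid genes, rose in DND-41 (log2 fold change 0.44 ± 0.06, adjusted p = 5.40e-05) with 76.0 and 78.7 CPM with ACBI-1 and 58.0 and 57.3 CPM with DMSO. In MOLT-4 it did not pass (log2 fold change 0.13 ± 0.05, adjusted p = 0.0558), with 293 and 306 CPM with ACBI-1 and 271 and 275 CPM with DMSO, though it did with all 8 libraries in 1 fit (0.14, adjusted p = 0.0479). ERLIN2, of the degradation machinery of the endoplasmic reticulum, rose in DND-41 (log2 fold change 0.36 ± 0.08, adjusted p = 0.0018). The MOLT-4 values of ERLIN2 were also positive, from 0.26 to 0.37 on leaving out each library in turn. LPIN1, a phosphatidate phosphatase, fell in MOLT-4 (log2 fold change −1.04 ± 0.07, adjusted p = 4.58e-10) and in DND-41 (log2 fold change −0.72 ± 0.06, adjusted p = 3.35e-07). SYVN1, a ubiquitin ligase, fell in MOLT-4 (log2 fold change −0.44 ± 0.05, adjusted p = 8.87e-07). In DND-41 the SYVN1 values were also negative, from −0.22 to −0.075 on leaving out each library in turn.

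Of the genes of fatty acid supply and use, 10 of 21 tested rose and 5 fell in MOLT-4, and 6 of 19 rose and 9 fell in DND-41. Over all tested genes 20.7% rose and 24.4% fell in MOLT-4, the share of falls being near the list's, and 20% rose and 23.2% fell in DND-41. SLC25A1, the citrate carrier that feeds ACLY, rose in MOLT-4 (log2 fold change 0.60 ± 0.05, adjusted p = 1.05e-08). Its DND-41 values lay between 0.018 and 0.057 on leaving out each library in turn. GPAM, of glycerolipid synthesis, rose in DND-41 (log2 fold change 0.37 ± 0.08, adjusted p = 0.00194). The MOLT-4 values of GPAM were also positive, from 0.21 to 0.32 on leaving out each library in turn. PTPLB, of very long chain elongation, rose in MOLT-4 (log2 fold change 0.42 ± 0.08, adjusted p = 2.80e-04) and DND-41 (log2 fold change 0.34 ± 0.07, adjusted p = 0.00116). OXSM, of mitochondrial fatty acid synthesis, rose in MOLT-4 (log2 fold change 0.43 ± 0.11, adjusted p = 0.00427) and DND-41 (log2 fold change 0.33 ± 0.11, adjusted p = 0.0281). Both MOLT-4 values passed in 1 fit of all 8 libraries but not in the fit with DND-41 that has 1 MOLT-4 library a group, where PTPLB stood at 0.30, adjusted p = 0.0563 and OXSM, no smaller, at 0.45, adjusted p = 0.0612. The DND-41 call for OXSM ended without DND-41 ACBI-1 replicate 2 (0.21, adjusted p = 0.18) or DND-41 DMSO replicate 1 (0.27, adjusted p = 0.173). ELOVL1, an elongase, fell in MOLT-4 (log2 fold change −0.50 ± 0.07, adjusted p = 1.08e-05) and DND-41 (log2 fold change −0.70 ± 0.07, adjusted p = 8.07e-07). MID1IP1, an activator of ACACA, fell in DND-41 (log2 fold change −0.64 ± 0.06, adjusted p = 8.82e-07). AGPAT3, an acyltransferase, passed as lower in MOLT-4 at 0 and 0.33 CPM in MOLT-4 with ACBI-1, against 0.682 and 1.04 CPM with DMSO, levels that rest on few reads, and not without MOLT-4 ACBI-1 replicate 1 (−1.37, adjusted p = 0.126).

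Of 12 genes of the other isoprenoid branches, 3 rose and 9 did not pass in MOLT-4, and 3 rose and 1 fell in DND-41. The rises are near the shares of all tested genes that rose, 20.7% in MOLT-4 and 20% in DND-41. COQ2, of ubiquinone synthesis, rose in MOLT-4 (log2 fold change 0.80 ± 0.10, adjusted p = 1.75e-06) and DND-41 (log2 fold change 0.85 ± 0.13, adjusted p = 1.14e-04). RABGGTA, a subunit of the geranylgeranyl transferase of Rab proteins, rose in MOLT-4 (log2 fold change 0.56 ± 0.07, adjusted p = 3.10e-06) and DND-41 (log2 fold change 0.77 ± 0.08, adjusted p = 2.20e-06). PDSS2 rose in MOLT-4 (log2 fold change 0.48 ± 0.11, adjusted p = 0.00183) and DND-41 (log2 fold change 0.41 ± 0.09, adjusted p = 0.0027), while its partner PDSS1 fell in DND-41 (log2 fold change −0.23 ± 0.08, adjusted p = 0.0242). The PDSS1 call was lost without DND-41 DMSO replicate 1 (−0.21, adjusted p = 0.191) or replicate 2 (−0.27, adjusted p = 0.079). PDSS2 was not called in DND-41 without DND-41 DMSO replicate 1 (0.30, adjusted p = 0.0716) or in MOLT-4 in the fit with DND-41 that has 1 MOLT-4 library a group (0.45, adjusted p = 0.0537).

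The authors' deposited tables, at their adjusted p below 0.05, gave 24 members higher and 1 lower with ACBI-1 in MOLT-4, and 12 higher and 7 lower in DND-41. In the authors' deposited table for MOLT-4 the sign was opposite to ACBI-1 over DMSO for all 6425 genes called here, and in that for DND-41 it was the same for all 6056, so signs were turned to ACBI-1 over DMSO in MOLT-4.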

How the data were processed

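Strand-specific paired-end RNA libraries, read at 100 bp on DNBSEQ per the labels, were grouped by their titles. The deposited counts are whole numbers per gene, unnormalized. STAR 2.5.2a, featureCounts, DESeq2 1.12.4 and hg19 are named in the submitters' processing notes, but neither the annotation nor the counting's strand setting is given in the sources used here. The authors' comparison tables, per the file headers, hold log2 fold changes with their errors, p-values and adjusted p-values, and 2 score columns that the authors deposited, the test statistic and the mean normalized count. The direction of their contrast is not stated in the headers.

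Tests within a line used edgeR 4.0.16 under R 4.3.3 (filterByExpr at a minimum count of 10, TMM, quasi-likelihood F test, Benjamini-Hochberg over all tested genes, threshold 0.05). The difference between lines (interaction) and the comparison of DMSO groups came from 1 fit of all 8 libraries. Every SE is the absolute log2 fold change over the square root of F, which borrows spread from other genes. CPM use TMM effective sizes of all 8 libraries, so their ratios can differ slightly from fold changes fitted within a line. All p-values named adjusted are from edgeR unless DESeq2 is named. Before use the fits were tested on simulated data in which the changed genes were known. Far fewer genes were changed there than were called here, so that test does not check the scaling of these data.

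All 32 members are accounted for. A member was given in full if called in either line at an absolute log2 fold change of 0.5 or more or if its difference was called, and of other lists the called genes with the largest change, up to 3 each way per line. Some of these other genes are not reported here. The members and lists were chosen with earlier results of these data known. Alternatives were scaling by DESeq2-type factors or by library size alone, no filter, a stricter filter of 1 CPM in every library, the tool DESeq2 1.42.0, the replicate number as a block, a joint fit of 8 libraries, a threshold of 0.01, and each library left out in turn, with a lone one assumed as variable as the rest. A joint fit with DND-41 that drops replicate 2 of both MOLT-4 groups was chosen after seeing the data. Between replicates, Pearson's r across genes of log2(CPM + 0.5) was 0.9954 to 0.9975, and no 2 libraries were identical. GENCODE 29 (GRCh38) served only by gene identifier, for lengths and overlaps, and gave 14 of 31 members with exon bases shared with another gene, 4 on the same strand and 13 on the opposite strand. Figures used Python 3.11.15 and matplotlib 3.10.9.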

Additional observations from a re-analysis of the deposited data

Results flagged for a closer look

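For 24 genes the change with ACBI-1 differed between MOLT-4 and DND-41, as tested by the interaction of line and treatment in edgeR's fit of all 8 libraries (adjusted p from 7.66e-09 to 0.0289). All 24 were more positive in MOLT-4. As given above, EBP, LBR and SREBF2 did not pass without both MOLT-4 replicate 2 libraries. SC5D, FDPS, STARD4, INSIG1, NSDHL and CYP51A1 were lost on leaving out 1 library, and CYP51A1 was counted at a low level. Among the mevalonate genes the log2 difference, MOLT-4 minus DND-41, was 1.31 for HMGCS1, 0.88 for MVK, 0.65 for IDI1, 0.53 for ACAT2, 0.50 for MVD and 0.31 for FDPS. Among the squalene and sterol genes it was 1.04 for CYP51A1, 1.03 for MSMO1, 0.94 for FDFT1, 0.86 for SQLE, 0.73 for LSS, 0.68 for DHCR7, 0.56 for SC5D, 0.46 for EBP, 0.46 for NSDHL and 0.39 for LBR. STARD4 differed by 0.47, SREBF2 by 0.33 and INSIG1 by 0.28. Among the fatty acid genes it was 1.28 for FADS1, 1.20 for ELOVL6, 0.87 for SCD, 0.76 for FASN and 0.66 for FADS2. Of these, FDFT1 and SCD rose in MOLT-4 and fell in DND-41. ELOVL6 did so too, but its MOLT-4 rise was lost on leaving out either replicate 2 library of MOLT-4.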

How the results depend on the processing

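Counts of members called were within 1.5 times the values given under every alternative run, with 2 exceptions. With both MOLT-4 replicate 2 libraries left out and the spread taken from DND-41, 1 member was lower in MOLT-4 and 15 differed as higher in MOLT-4. Leaving out 1 library gave 9 to 15 rises and 6 to 8 falls in DND-41, 24 to 26 rises and 2 falls in MOLT-4, 18 to 25 higher differences, and 9 to 10 higher and 14 to 16 lower members in DMSO. Counts over all tested genes also moved on leaving out 1 library. DESeq2 gave 12 rises and 7 falls in DND-41, 24 and 2 in MOLT-4, and 23 higher differences. Over all tested genes it gave 1871 rises and 2460 falls in DND-41, 1962 and 2524 in MOLT-4, and 781 higher differences. The edgeR counts over all tested genes were 2807 and 3249, 2948 and 3477, and 1112. The replicate numbers were shared between groups. Deviations of same-numbered libraries correlated at 0.07 in DND-41 and 0.21 in MOLT-4, over only 2 pairs each, so the main fits did not take the numbers as pairs. In MOLT-4, however, both replicate 2 libraries held more stromal or epithelial marker reads than replicate 1 of their group. Whether the numbers mark pairs was not tested otherwise. With the replicate block 15 members rose and 7 fell in DND-41, 26 rose and 2 fell in MOLT-4, 25 differed as higher, and 10 were higher and 16 lower in DMSO. Over all tested genes the block gave 3297 rises and 3579 falls in DND-41, 3217 and 3703 in MOLT-4, and 1398 higher differences. In DMSO it gave 5161 higher and 4776 lower.

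The sign turned only for values that had not passed, and 0 of the 33 turned values passed (edgeR or DESeq2, adjusted). With library size alone it turned for NSDHL in DND-41 (0.0071), INSIG1 and INSIG2 in MOLT-4 (−0.029 and −0.070), the differences of PMVK, TM7SF2, SCAP and ACACA (−0.095, −0.013, −0.048 and −0.025) and the DMSO comparison of TM7SF2, SCAP and FADS2 (−0.0027, −0.086 and −0.096). TM7SF2 in DND-41 turned with no filter (−0.0051) and in 1 fit of all libraries (−0.0082), and INSIG2 in MOLT-4 with the stricter filter (−0.0035). Leaving out 1 library gave ranges across 0 in DND-41 for TM7SF2 (−0.17 to 0.20), NSDHL (−0.15 to 0.10), SCAP (−0.013 to 0.18) and CYP51A1 (−0.33 to 0.19), and in MOLT-4 for INSIG2 (−0.0025 to 0.033), PDSS1 (−0.21 to 0.014), INSIG1 (−0.0038 to 0.12) and LBR (−0.074 to 0.028). It did so for the differences of INSIG2 (−0.10 to 0.020), SCAP (−0.0096 to 0.18), PMVK (−0.060 to 0.12) and TM7SF2 (−0.084 to 0.29), and in DMSO for TM7SF2 (−0.077 to 0.30), FADS2 (−0.021 to 0.033) and SCAP (−0.019 to 0.067). The cause was not tested. Depth limits ACSS2, CYP51A1 and INSIG2 most, the members with the fewest reads, and CYP51A1 also shares most of its exon bases with another gene.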
